A study of Mus musculus with 6 samples.

Results

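Genes of proteins held at the cell surface by a glycosylphosphatidylinositol (GPI) anchor were examined in cultured mouse oligodendrocyte precursor cells (OPCs) with and without the anchor-cleaving enzyme GDE3. The 45 genes were taken by symbol from a list of GPI-anchored proteins that leaves out the glypicans, located in the GENCODE M21 annotation of mm10 and matched by position to the assembled transcripts of each library. All 45 could be quantified, among 31266 quantified genes in all, and 36 of them reached a mean of 1 FPKM over the 6 libraries, the minimum for testing that 12045 genes met. FPKM gives the fragments of a transcript relative to its length and to all fragments mapped in the library, so levels can be set side by side between genes. The study holds 3 libraries of Gde3 KO cells and 3 of WT cells. Both groups are C57BL/6, and the cells of each were pulled down with magnetic beads for A2B5, a surface ganglioside epitope of early glial cells, from the spinal cord at postnatal day 0.5. Both groups were kept for 16 h on coated plates in medium for proliferation with PDGF and CNTF at 10 ng/mL each and forskolin at 5 µM. The labels do not say how the Gde3 allele was made, nor whether libraries of a group came from separate animals or litters, so the p-values below measure the spread between libraries, which may be technical. The question for these genes was which candidate substrates of GDE3 the cells express, and whether their mRNA levels differ between the genotypes.

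A GPI anchor is a glycolipid added to a protein's carboxyl end in the endoplasmic reticulum, which tethers it to the outer leaflet of the plasma membrane with no cytoplasmic tail. GDE3, the product of Gdpd2, is a membrane-spanning glycerophosphodiester phosphodiesterase with an extracellular catalytic domain that can cut within such anchors and free the protein, as named for the CNTF receptor α chain in the study's title. Release acts on the protein, so mRNA levels show which substrates the cells could carry and not how much of any was shed.

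The targeted gene was checked at the start. Gdpd2 stood at 0.667, 1.497 and 1.78 FPKM in KO replicates 1 to 3 and at 0, 2.79 and 2.85 FPKM in WT replicates 1 to 3, levels that overlapped (exact two-sided permutation test, p = 0.6, where 3 against 3 libraries allow 0.1 at the smallest). Exons 9 and 10 of Gdpd2 were not assembled in any KO library and were wholly assembled in WT replicates 2 and 3. Of exon 8, 2.68% was assembled in KO replicate 3 and 0% in KO replicates 1 and 2, against 100% in WT replicates 2 and 3. In WT replicate 1 assembly below the 300 nt length minimum covered 19.5% of exon 8, all of exon 9 and 21.9% of exon 10. WT replicate 1 stood apart in its assembly, with a median transcript length of 438 nt and 36.8% of transcripts under 300 nt, against 1173 to 1830 nt and 2.16% to 6.61% in the other 5 libraries. Relative depth, read from the coverage that 1 FPKM stands for, was 0.759 of the deepest library in WT replicate 1 and at least 0.882 in the rest, and no read counts were at hand. All 8 OPC markers were above 1 FPKM in all 6 libraries, with sums of 935 to 1459 FPKM led by Olig1 and Olig2. Markers of other cells were present too, with sums of 409 to 543 FPKM for 8 oligodendrocyte, 179 to 723 for 7 astrocyte, 151 to 328 for 10 neuron, 56.7 to 188 for 9 microglia, 20.6 to 32.0 for 8 vascular and 51.0 to 128 for 7 meningeal and fibroblast markers. The haemoglobin gene Hbb-bs, an erythroid marker, was at 21.5 to 165 FPKM. Among the defining markers, Mog was at 0 in WT replicate 1 and Aif1 in WT replicate 2, while Hba-a1 was listed at 0 in all 6.

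The letters upstream of RefSeq starts near assembled 5′ ends are shown for 3 members, with CpG dinucleotides in capitals. RefSeq (GRCm38.p6, the assembly behind mm10) gave a start for 34 of the 45 genes, and each sequence below is the part of the 250 bases before a start that lies upstream of every assembled 5′ end there, written 5′ to 3′ on the plus strand. Cntn1 has its gene start at chr15:92051165 and a downstream start inside the gene, and its assembled transcripts used both. The stretches are chr15:92050915-92051164 before the upstream start and chr15:92161107-92161217 before the downstream one.
Cntn1 upstream: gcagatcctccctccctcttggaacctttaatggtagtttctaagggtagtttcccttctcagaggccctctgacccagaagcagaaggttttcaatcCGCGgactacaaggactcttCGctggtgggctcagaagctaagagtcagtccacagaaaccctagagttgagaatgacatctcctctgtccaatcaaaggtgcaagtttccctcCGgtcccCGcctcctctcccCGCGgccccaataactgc
Cntn1 downstream: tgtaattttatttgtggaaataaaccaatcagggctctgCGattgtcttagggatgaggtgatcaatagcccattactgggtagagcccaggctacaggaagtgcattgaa
Lsamp also has an upstream RefSeq start and another far inside the gene, preceded by chr16:39984114-39984346 and chr16:41532576-41532821.
Lsamp upstream: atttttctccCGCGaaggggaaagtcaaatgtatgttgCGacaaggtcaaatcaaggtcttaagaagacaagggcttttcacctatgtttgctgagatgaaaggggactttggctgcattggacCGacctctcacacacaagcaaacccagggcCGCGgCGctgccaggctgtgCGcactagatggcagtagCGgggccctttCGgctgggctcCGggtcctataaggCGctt
Lsamp downstream: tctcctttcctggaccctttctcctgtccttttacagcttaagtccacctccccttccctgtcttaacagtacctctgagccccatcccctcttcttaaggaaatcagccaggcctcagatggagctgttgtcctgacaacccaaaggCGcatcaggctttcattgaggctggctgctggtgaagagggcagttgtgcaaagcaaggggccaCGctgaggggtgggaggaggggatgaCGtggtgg
Prnp had 1 start, and the 6 assembled 5′ ends lay between 13 bases upstream and 22 bases downstream of the RefSeq start. Its stretch is chr2:131909678-131909914.
Prnp: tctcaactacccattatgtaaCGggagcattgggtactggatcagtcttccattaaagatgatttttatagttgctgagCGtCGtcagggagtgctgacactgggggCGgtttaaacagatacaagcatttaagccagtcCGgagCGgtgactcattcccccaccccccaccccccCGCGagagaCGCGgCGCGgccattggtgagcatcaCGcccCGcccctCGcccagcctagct

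In Cntn1 and Lsamp the 250 bases before the upstream start held more CpG than those before the inner one. The counts were 7 CpG in the 250 bases before the upstream Cntn1 start and 3 before the downstream one, and 12 and 3 for Lsamp. Prnp had 17 in its 250 bases, with 2 copies of the GC box GGGCGG and 1 TATAAA, each searched on both strands. The printed stretches can be shorter than 250 bases, and show 1 CpG for downstream Cntn1 and 15 for Prnp. Across the 34 genes, taking for each the start nearest to assembled 5′ ends in most libraries, the median was 16 CpG in 250 bases, against 6 over all 32851 starts in the table. The 13 genes with a mean of at least 5 FPKM had a median of 14, the 15 genes at 1 to 5 FPKM a median of 18 and the 6 genes below 1 FPKM a median of 23, so the less expressed groups had the higher medians, which is a description with no test. A GC box stood in 64.7% of the 34 windows and in 32.7% of all windows, and TATAAA in 2.94% and 12.4%. These sets are unlike, since each member has 1 start chosen by assembled 5′ ends. The full set holds every start of all genes, expressed or not. An assembled 5′ end lay within 100 bases of the start in at least 1 library for 26 of the 34 genes and in all 6 libraries for 6, among them Prnp, Gfra1, Sema7a and Alpl.

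Transcripts from neither Lsamp start shown held most of that gene's assembled FPKM. Those from the upstream one were assembled in 4 libraries only, in pieces of 327 to 407 nt, and those from the other reached 570 to 715 nt. Another set of transcripts began further inside Lsamp, from base 41888915, with no RefSeq start near it. It was assembled in all 6 libraries at 49.1, 48.5 and 14.7 FPKM in KO and 46.2, 56.4 and 56.9 FPKM in WT. Its transcripts reached 923 nt in KO replicate 1 and 8359 nt in KO replicate 3. Whether this 5′ end is a start of transcription or a break in the assembly was not tested.

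The FPKM assembled from each Cntn1 start differed between libraries, and the WT range spanned the KO values at both starts. Transcripts from the upstream Cntn1 start summed to 50.4, 39.2 and 64.8 FPKM in KO replicates 1 to 3 and to 184, 33.7 and 0 FPKM in WT replicates 1 to 3. Those from the downstream start summed to 125, 121 and 128 FPKM in KO and to 91.9, 132 and 177 FPKM in WT. The upstream start thus carried the larger share in WT replicate 1 alone, and in WT replicate 3 no transcript was assembled from it. Against WT replicates 2 and 3 only, every KO value was higher upstream and lower downstream. A genotype difference in these shares was not tested. In WT replicate 1 the downstream transcripts reached 2228 nt at most, and in KO replicate 3 the upstream ones 2515 nt where other libraries had 5270 to 5665 nt. Rgma, a guidance ligand described below, also had transcripts from 2 assembled starts in all 6 libraries. From its downstream start came 21.1, 36.8 and 6.09 FPKM in KO and 13.4, 29.8 and 5.16 FPKM in WT. Both replicate 3 libraries were lowest there, and they were also the libraries in which Rgma transcripts were assembled to 7346 to 7682 nt rather than 3039 to 3582 nt. The part of assembled length in the differences of Cntn1 and Rgma was not tested.

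**Figure D1:**
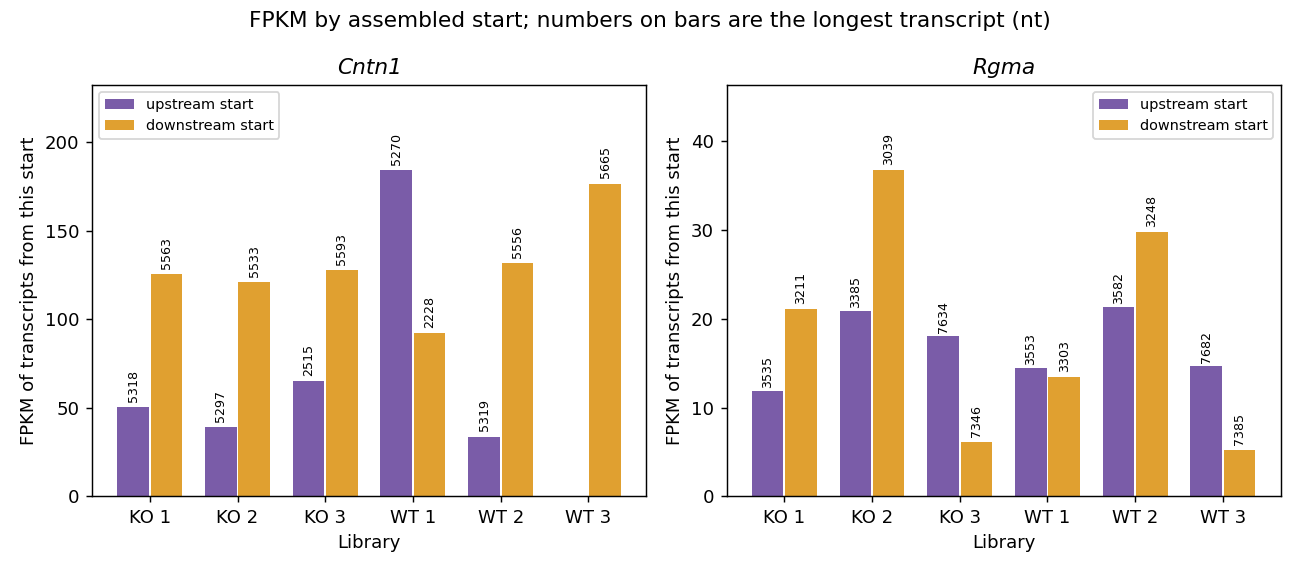
FPKM of assembled transcripts by start for Cntn1 and Rgma (vertical axes) in each library (horizontal axis), with the longest transcript of each start in nt on the bar. The upstream Cntn1 start is the taller bar in WT replicate 1 only, and the downstream Rgma start is lowest in both replicate 3 libraries.

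The cells expressed these genes over a wide range, and a few members held most of the signal. Of the 45 genes, 19 had a mean of at least 5 FPKM, 17 lay at 1 to 5 FPKM and 9 below 1 FPKM. Cntn1 alone accounted for 24.6% of the FPKM summed over the members, the top 5 (Cntn1, Cd24a, Cdh13, Prnp and Omg) for 61.7% and the top 10 for 81.7%. A mean of at least 20 FPKM was reached by 9 genes, the last of them Iglon5 at 20.9 FPKM. In 39 of the genes a transcript was assembled in all 6 libraries. Cntn5 and Folr1 were listed at 0 in all 6, which means that no transcript of 300 nt or more covered them and is not a measure of absence. The sum over all 45 was 683, 587 and 536 FPKM in KO and 801, 628 and 579 FPKM in WT, with replicate 1 highest and replicate 3 lowest in both genotypes.

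**Figure D2:**
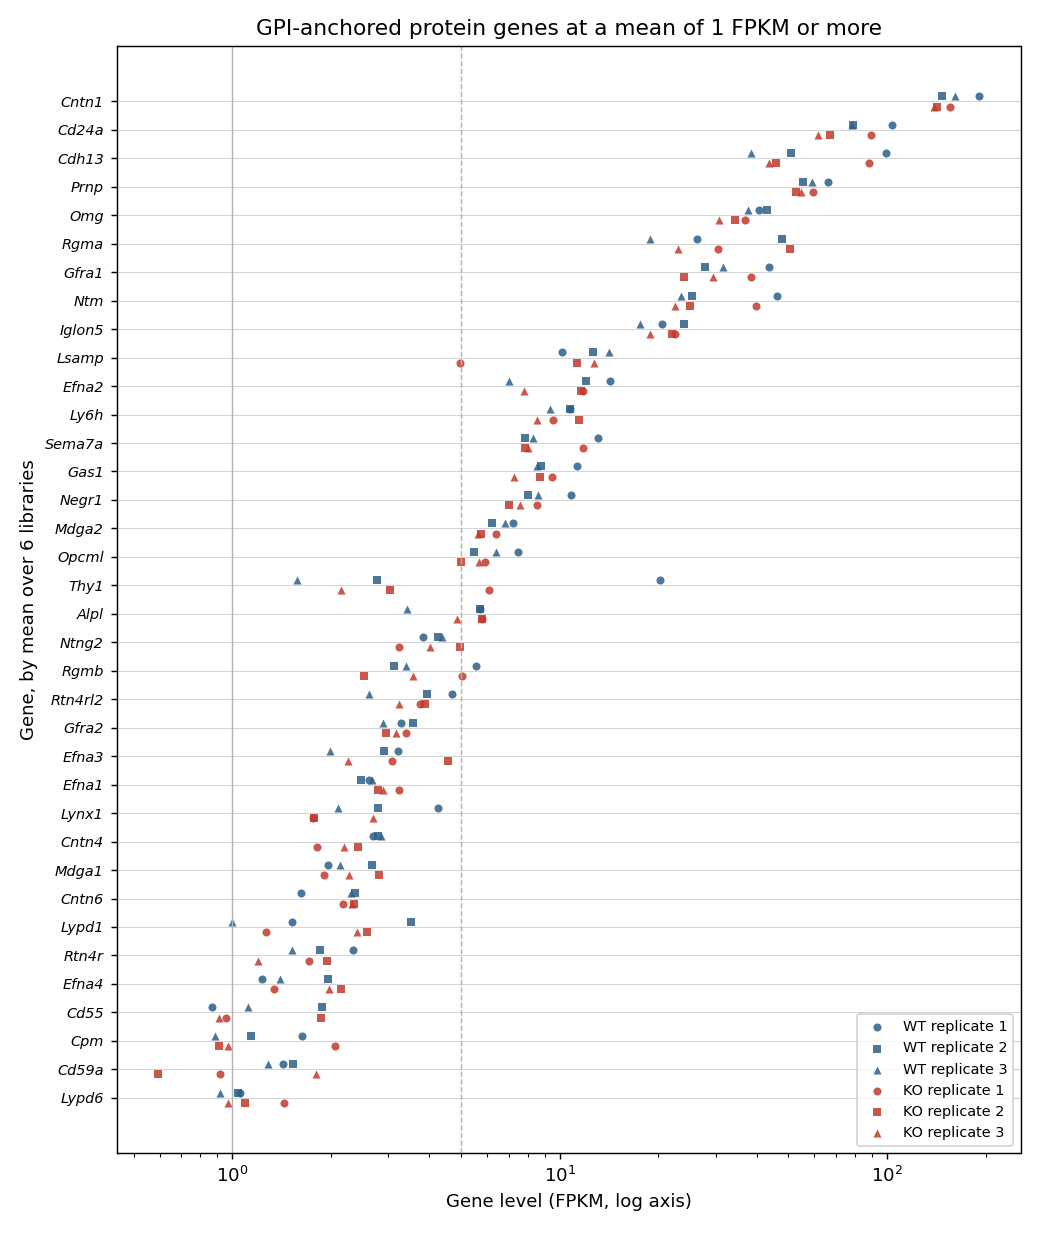
Level of each of the 36 genes with a mean of at least 1 FPKM (rows, ordered by mean) in FPKM on a log axis, with KO libraries in red and WT in blue and a marker shape per replicate number. Cntn1 leads at 139 to 191 FPKM, the dashed line marks 5 FPKM and the solid line 1 FPKM.

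Among the contactins, immunoglobulin-superfamily adhesion proteins of axons and glia, a single gene was abundant. Cntn1 (ENSMUSG00000055022.14, chr15:92051165-92341967, plus strand) encodes contactin 1, which pairs with Caspr proteins at the axon and binds the receptor phosphatase PTPRZ on OPCs. Its level was 156, 142 and 139 FPKM in KO replicates 1 to 3 and 191, 147 and 161 FPKM in WT replicates 1 to 3, or 146 ± 8.92 against 166 ± 22.8 FPKM (mean ± SD, n = 3 each). WT replicate 1 was the highest, and the other WT libraries lay within or just above the KO range. The mean of WT Cntn1 exceeded that of 97.8% of the 11634 protein-coding genes with a WT mean of at least 1 FPKM. Cntn4 was at 1.82, 2.42 and 2.19 FPKM in KO and 2.70, 2.78 and 2.84 FPKM in WT, without overlap. Cntn6 ranged from 1.62 to 2.37 FPKM. Cntn3 ranged from 0 to 0.673 FPKM, and Cntn2, known from axons, reached 1.40 FPKM in WT replicate 1 but no more than 0.310 FPKM elsewhere.

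The IgLON family of small immunoglobulin-domain adhesion proteins was the group in which every member was well expressed, with 5 of 5 at 5 FPKM or more. Ntm, encoding neurotrimin, was at 39.8, 25.03 and 22.5 FPKM in KO and at 46.3, 25.5 and 23.5 FPKM in WT, high in replicate 1 of both genotypes. Iglon5 ranged from 17.6 to 24.0 FPKM, with KO at 21.1 ± 1.96 and WT at 20.7 ± 3.17 FPKM. Lsamp, the limbic system-associated membrane protein, was at 4.96, 11.3 and 12.8 FPKM in KO and at 10.1, 12.7 and 14.2 FPKM in WT. KO replicate 1 was lowest there, and in that library 13.9% of the bases of Lsamp were assembled against 80.0% to 85.4% in the others. Averaged over assembled bases only, the Lsamp difference turned from -0.40 to 0.37 on the log2(FPKM + 1) scale. It was -3.94 with no length minimum and -5.58 with FPKM summed over transcripts, which also took in those under 300 nt. Negr1 was at 8.52, 6.99 and 7.55 FPKM in KO and 10.8, 8.001 and 8.59 FPKM in WT. Opcml was at 5.91, 5.00 and 5.69 FPKM in KO and 7.49, 5.49 and 6.40 FPKM in WT. Ranges overlapped between the genotypes for each of the 5 IgLON genes.

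Other adhesion proteins were led by Cd24a and Cdh13. Cd24a (ENSMUSG00000047139.9, chr10:43578284-43584265, plus strand), a short, heavily glycosylated protein known from immature neurons and many progenitors, was at 89.6, 67.1 and 61.6 FPKM in KO and at 103, 78.9 and 78.1 FPKM in WT. Replicate 1 was highest in each genotype, and the KO library was below its WT counterpart at each number. Cdh13 (ENSMUSG00000031841.19, chr8:118283733-119324921, plus strand) encodes T-cadherin, a cadherin without a cytoplasmic tail. It was at 87.8, 46.0 and 43.6 FPKM in KO and at 99.4, 51.0 and 38.4 FPKM in WT, so the 2 libraries numbered 1 stood well above the other 4. Thy1, a marker of mature neurons and also of some other cells, was at 6.10, 3.03 and 2.14 FPKM in KO and 20.3, 2.77 and 1.58 FPKM in WT, with its mean set by WT replicate 1. Mdga2, a suppressor of neuroligin and neurexin pairing, was at 6.40, 5.76 and 5.63 FPKM in KO and 7.22, 6.24 and 6.83 FPKM in WT. Its paralogue Mdga1 was lower, from 1.91 to 2.81 FPKM. Of the netrin-G proteins, Ntng2 ranged from 3.23 to 4.95 FPKM and Ntng1 from 0.286 to 0.747 FPKM.

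Receptor and co-receptor genes formed the next group. Gfra1 (ENSMUSG00000025089.15, chr19:58235604-58455909, minus strand), the binding chain of the GDNF receptor, was at 38.3, 24.0 and 29.4 FPKM in KO and 43.6, 27.8 and 31.6 FPKM in WT. Replicate 1 was highest and replicate 2 lowest in both genotypes. Gfra2, which prefers neurturin, was far lower, at 2.89 to 3.58 FPKM. Gas1, a hedgehog co-receptor related to the GFRα chains, was at 9.45, 8.70 and 7.27 FPKM in KO and 11.3, 8.75 and 8.55 FPKM in WT. Omg (ENSMUSG00000049612.10, chr11:79500982-79504084, minus strand) encodes oligodendrocyte myelin glycoprotein, a ligand of the Nogo receptor. It was at 36.9, 34.4 and 30.8 FPKM in KO and 40.6, 42.9 and 37.6 FPKM in WT, so the highest KO library was just below the lowest WT library. The Nogo receptor genes themselves were low, with Rtn4r at 1.198 to 2.34, Rtn4rl2 at 2.62 to 4.68 and Rtn4rl1 at 0.295 to 1.95 FPKM.

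Guidance ligands were uneven within their families. Rgma (ENSMUSG00000070509.15, chr7:73375509-73419899, plus strand), repulsive guidance molecule A and a ligand of neogenin, was at 30.4, 50.6 and 23.0 FPKM in KO and 26.3, 47.8 and 18.9 FPKM in WT. The libraries numbered 2 were highest and those numbered 3 lowest in both genotypes. Rgmb was lower, at 2.53 to 5.56 FPKM, with its peak in replicate 1 of both. Sema7a, a semaphorin that binds plexin C1 and integrin β1, was at 11.8, 7.85 and 7.99 FPKM in KO and 13.1, 7.83 and 8.27 FPKM in WT, also highest in the libraries numbered 1. Of the ephrin-A ligands, which signal to EphA receptors on neighbouring cells, Efna2 was the most abundant at 11.8, 11.6 and 7.76 FPKM in KO and 14.2, 12.0 and 7.02 FPKM in WT. Both replicate 3 libraries were lowest. Efna1 was at 3.23, 2.79 and 2.89 FPKM in KO and 2.62, 2.48 and 2.68 FPKM in WT, without overlap and higher in KO. Efna3 ranged from 1.99 to 4.56, Efna4 from 1.23 to 2.15 and Efna5 from 0.698 to 1.22 FPKM.

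The remaining members were single proteins and small families. Prnp (ENSMUSG00000079037.9, chr2:131909928-131938429, plus strand), the cellular prion protein, was at 59.4, 52.7 and 54.6 FPKM in KO and 66.1, 55.3 and 58.9 FPKM in WT. Of the Ly6 family, whose three-finger domains bind nicotinic receptors in several members, Ly6h was at 9.57, 11.5 and 8.51 FPKM in KO and 10.7, 10.8 and 9.37 FPKM in WT. Only 31.8% to 36.6% of the exon bases of Ly6h were assembled, and its transcripts summed to 38.8 to 51.7 FPKM. Lynx1 ranged from 1.76 to 4.26, Lypd1 from 0.997 to 3.51 and Lypd6 from 0.921 to 1.44 FPKM. The complement regulators were near the minimum, with Cd55 at 0.868 to 1.89 FPKM and Cd59a at 0.592 to 1.80 FPKM, and reads of Cd59a could be shared with its close copy Cd59b. Among enzymes, Alpl, tissue-nonspecific alkaline phosphatase, was at 5.79, 5.80 and 4.87 FPKM in KO and 5.69, 5.70 and 3.41 FPKM in WT. The carboxypeptidase gene Cpm ranged from 0.887 to 2.05 FPKM, and Nt5e, the ectonucleotidase CD73, from 0 to 1.04 FPKM. Nrn1, encoding neuritin, was at 3.77 FPKM in WT replicate 1, 0.332 FPKM in KO replicate 1 and 0 in the other 4 libraries. In 10 of the 45 genes some exon bases overlap another annotated gene, among them Prnp, Rgma, Gfra1 and Gas1, and those bases were left out of the level.

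No member differed between KO and WT in the test across all genes. With limma on log2(FPKM + 1) and Benjamini-Hochberg adjustment over 12045 genes, 0 of 36 members were called in either direction, where the background was 0.0083% of genes called lower and 0.0% called higher. At an unadjusted p under 0.05 the count was also 0 of 36, against 1.62% of all genes, and the smallest unadjusted p was 0.0785, for Omg (adjusted p = 0.99986). The log2 differences of the 36 ran from -0.40 for Lsamp and Thy1 to 0.19 for Efna3, with a median of -0.06 against -0.01 over all tested genes. On this scale the change of genes near 1 FPKM is understated. The median SE of a member's difference was 0.19 in the same log2 units. In bulk libraries fewer cells of a type and less RNA per cell cannot be told apart.

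Omg and Cntn4 were the members in which every KO library lay below every WT library, and Efna1 the member with the reverse. That is 5.56% of members against a background of 3.03% for lower in KO, and 2.78% against 2.03% for higher in KO. Omg was 34.0 ± 3.07 FPKM in KO and 40.4 ± 2.67 FPKM in WT (SD, n = 3 each), a log2 difference of -0.24 ± 0.11 (SE). Cntn4 was 2.14 ± 0.305 and 2.77 ± 0.0737 FPKM, a log2 difference of -0.27 ± 0.14. Efna1 was 2.97 ± 0.228 and 2.59 ± 0.103 FPKM, a log2 difference of 0.14 ± 0.12. None of the 3 passed the adjusted threshold. For Cntn1 the log2 difference was -0.18 ± 0.14, for Cd24a -0.26 ± 0.19, for Cdh13 -0.05 ± 0.42, for Prnp -0.11 ± 0.12 and for Rgma 0.18 ± 0.41. Without WT replicate 1 the values for Cntn1 and Cd24a were -0.08 and -0.13, and without KO replicate 1 the Lsamp difference of -0.40 was -0.02. The wide errors of Cdh13 and Rgma stood beside the large gaps between replicate numbers in both genotypes.

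Because libraries that share a number varied together across genes, each KO library was also set against the WT library of its number. The KO library was below its WT counterpart in all 3 pairs for 12 of 36 members, 33.3% against 15.8% of all tested genes: Cd24a, Cntn1, Cntn4, Gas1, Gfra1, Lsamp, Mdga2, Negr1, Ntm, Omg, Opcml and Prnp. It was above in all 3 for 5 members, 13.9% against 13.6%: Alpl, Efna1, Efna4, Lypd6 and Rgma. Without the libraries numbered 1 the first count became 13 of 36 over the other 2 pairs, 36.1% against 25.1% of genes. The difference was below 0 in 25 of 36 members, 69.4% against 51.4% of genes. Leaving out a library moved this count between 18 of 36 without KO replicate 3 and 30 of 36 (83.3%) without WT replicate 3, where all genes had 53.6% and 52.8%. The share was 52.8% without WT replicate 1, where all genes had 52.5%, and 80.6% with array weights. With the replicate number as a block, 0 members passed the adjusted threshold (lowest limma adjusted p = 0.809) and 3 had an unadjusted p under 0.05, 8.33% against 4.23% of genes. In this limma fit the unadjusted p was 0.0241 for Cd24a, 0.0318 for Omg and 0.0491 for Negr1 (adjusted p = 0.809 for each). The block lowered the median SE of the members from 0.19 to 0.10 and that of all genes from 0.18 to 0.11.

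**Figure D3:**
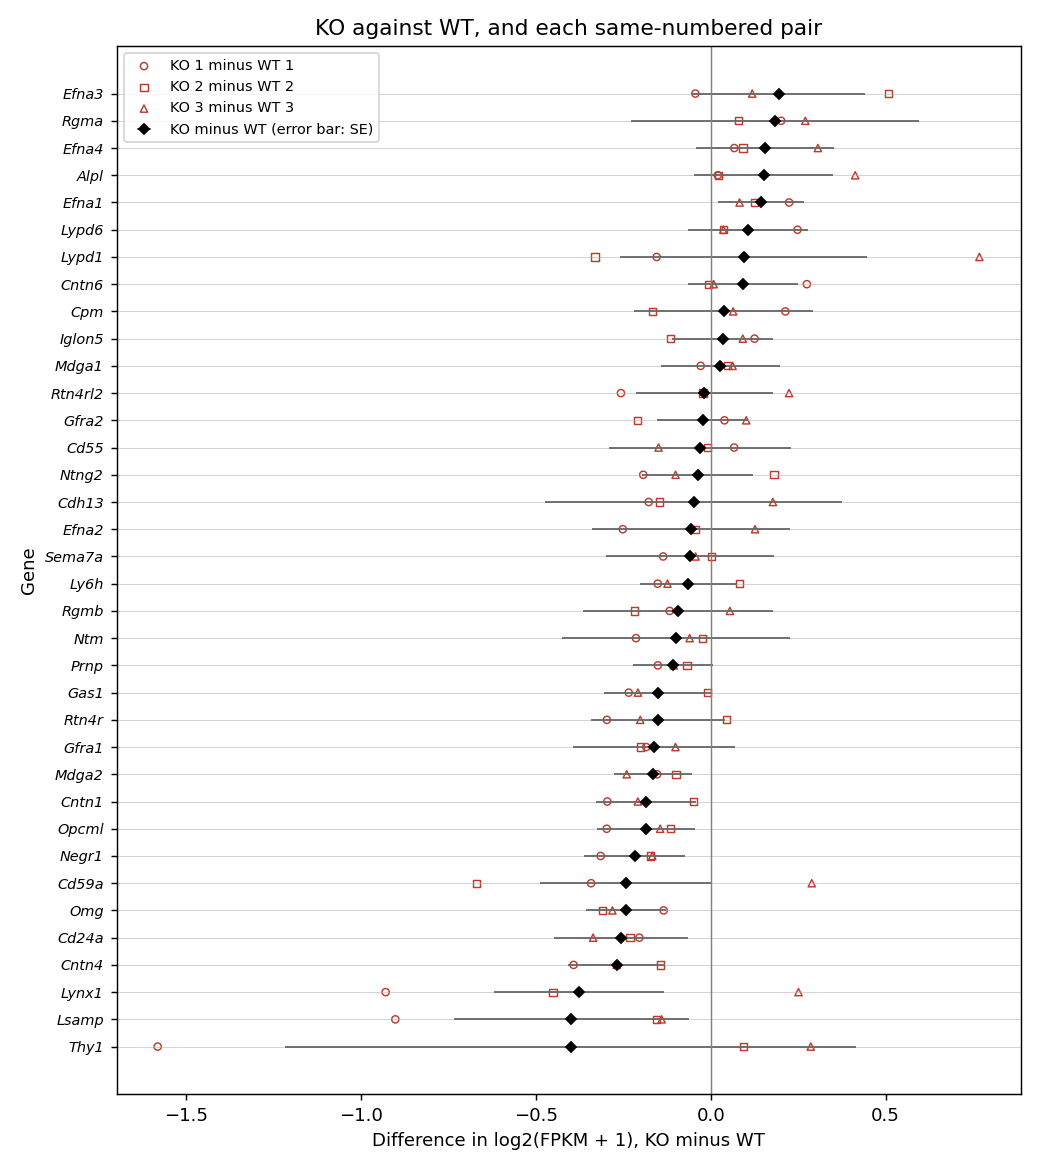
Difference in log2(FPKM + 1), KO minus WT, for the 36 tested genes (rows), with the limma estimate and its SE in black and each same-numbered pair in red. Estimates run from -0.40 to 0.19, and the points of pair 1 lie far below the other 2 pairs for Thy1 and Lsamp.

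For several members the libraries of different number lay further apart than those of different genotype. Replicate 1 was the highest library in both genotypes for 16 of 36 members, 44.4% against 23.3% of all tested genes, and replicate 3 the lowest in both for 15 of 36, 41.7% against 17.2%. Replicate 2 was highest in both for 8 members, 22.2% against 14.1%. A limma F test of the replicate number with genotype in the model called 0 of 36 members after adjustment, with a background of 0.108% of genes. At an unadjusted p under 0.05 it gave 10 of 36, 27.8% against 23.6%: Cd24a, Cd55, Cdh13, Efna2, Gfra1, Ntm, Rgma, Rgmb, Sema7a and Thy1. This test was added after the data had been seen. The lowest of these was Rgma with an unadjusted p of 0.000638 (adjusted p = 0.0851), and Cdh13 had 0.00214 (adjusted p = 0.109). Cd55 and Rgma were highest in replicate 2 of both genotypes, and the other 8 had replicate 1 at the top in both.

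**Figure D4:**
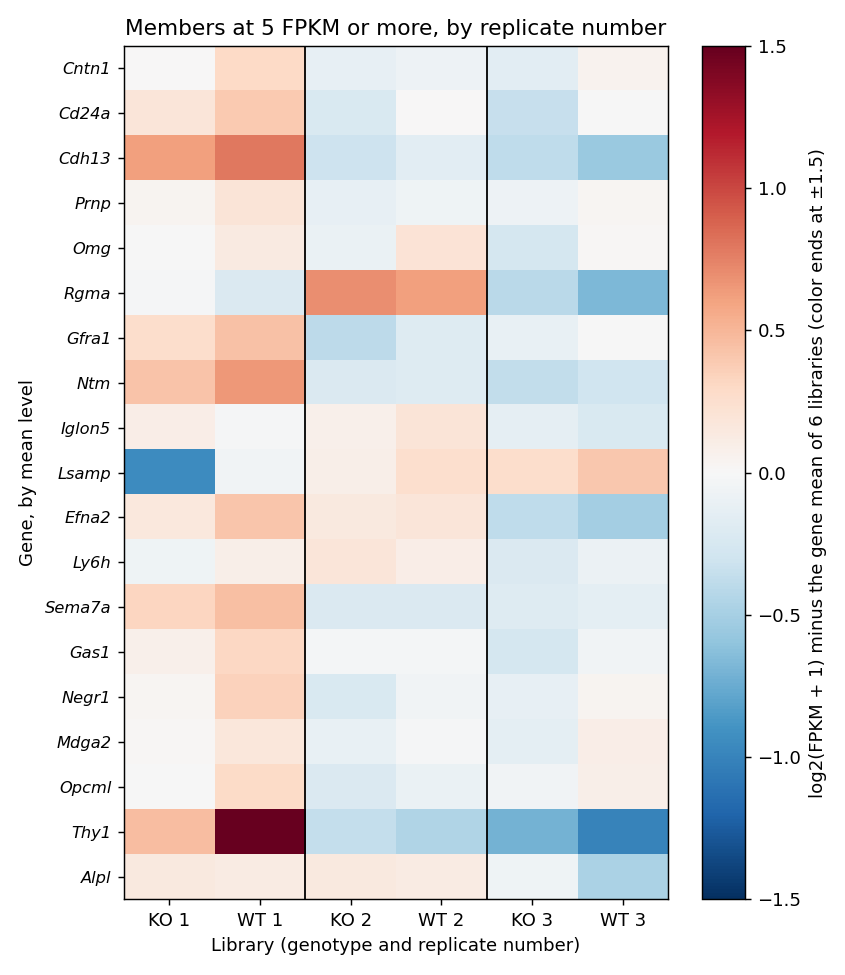
Deviation of log2(FPKM + 1) from each gene's mean over 6 libraries (color) for the 19 genes with a mean of at least 5 FPKM (rows), with KO and WT libraries side by side by replicate number (columns). The columns numbered 1 are above the mean for Cdh13, Ntm and Gfra1, those numbered 2 for Rgma, and Thy1 in WT replicate 1 is beyond the color scale.

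Marker sums moved with some of these differences. The 10 neuron markers summed to 328 FPKM in WT replicate 1, against 151 to 213 FPKM elsewhere. In 7 of the 10 that library was the highest, as in Nefl, the neurofilament light chain, at 58.8 FPKM against 8.57 to 15.7 FPKM, while Snap25 was lowest there at 3.99 FPKM and Map2 was at 40.2 FPKM against 76.1 and 85.5 FPKM in the other WT libraries. Of the 10, 9 were lower in KO in direction and 0 were called. WT replicate 1 was the highest library for 17 of the 36 tested members, 47.2% against 27.0% of all tested genes, among them Thy1, Cntn1, Cd24a, Cdh13 and Prnp. The 7 astrocyte markers summed to 235 FPKM in KO replicate 1, to 179 FPKM in WT replicate 1 and to between 438 and 723 FPKM in the other 4. The 9 microglia markers summed to 101 to 188 FPKM in KO and 56.7 to 78.6 FPKM in WT, and 8 of the 8 tested were higher in KO in direction with 0 passing the adjusted threshold. At an unadjusted p under 0.05 there were 5 of the 8, against 1.62% of all genes. C1qa, C1qb, C1qc, Laptm5 and Tyrobp were higher in KO without overlap between genotypes, as were 2.03% of all tested genes. Of the 8 OPC markers, 3 were higher and 5 lower in KO in direction, with 0 called. At an unadjusted limma p under 0.05 there was 1 of these 8, against 1.62% of all genes. Of the 8 oligodendrocyte markers, 4 were higher and 4 lower, with 0 called and 0 under that p. The part of these cell types in the members' values was not tested.

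Receptors and ligands of the members were read from 7 lists, with 53 genes tested, 0 called in either direction and 0 with an unadjusted p under 0.05. Of 10 genes tested on the contactin and neurofascin list, 5 were higher and 5 lower in KO in direction. Ptprz1, the receptor phosphatase that contactin 1 binds, was at 131, 134 and 137 FPKM in KO and 141, 146 and 146 FPKM in WT. Every KO library was below every WT library, as in 3.03% of all tested genes. The log2 difference of Ptprz1, -0.10 ± 0.10, did not pass. Notch1 (46.1 ± 6.55 FPKM in KO, 44.4 ± 6.71 in WT) and Tnc (33.4 ± 2.57 and 30.4 ± 3.47) were above the WT library of the same number in all 3 KO libraries, and L1cam was 3.80 ± 0.660 and 5.30 ± 2.28 FPKM.

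Of the ephrin-A receptor list, 5 of 10 genes reached the minimum, 3 higher and 2 lower in direction. Ephb2, an EphB gene, led it at 7.83 to 10.2 FPKM, followed by Epha4, the highest EphA gene, at 4.66 to 5.51 FPKM. Epha5 was at 1.16 to 3.72 and Epha7 at 1.73 to 2.97 FPKM. The Nogo receptor list had 3 higher and 3 lower of 6. Its most abundant genes were Rhoa at 154 to 204 FPKM, Rtn4, which encodes Nogo, at 51.1 to 77.8 FPKM, and Mag, a myelin ligand of the receptor, at 24.7 to 73.9 FPKM. Ngfr, a co-receptor, was at 25.4 FPKM in WT replicate 1 and 2.48 to 5.11 FPKM elsewhere. On the GDNF receptor list 3 of 9 genes were tested, 1 higher and 2 lower. Ncam1, a signalling partner, was at 29.8 to 39.4 FPKM and Nrtn, encoding neurturin, at 0.886 to 2.65 FPKM. Gfra4 was at 1.64 ± 0.963 in KO and 3.17 ± 0.762 FPKM in WT. Ret, another signalling partner, was below the minimum for testing. It was at 0.548, 0.646 and 0.156 FPKM in KO and 2.36, 0.480 and 0.191 FPKM in WT.

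The list for the RGM proteins and semaphorin 7A had 6 higher and 6 lower of 12. Neogenin, the receptor of Rgma, was at 20.7 to 24.6 FPKM (Neo1), Bmpr1a at 22.0 to 31.2 FPKM and Itgb1 at 61.5 to 99.7 FPKM. Unc5b was 3.55 ± 0.604 FPKM in KO and 2.69 ± 0.396 in WT, and Unc5c 7.16 ± 1.12 and 8.50 ± 0.708. Partners of the netrin-G and MDGA proteins were below 0 in direction for 9 of 9 genes (median log2 difference -0.17), 0 of them called. Among them Nlgn3, a neuroligin, was at 22.3, 13.2 and 7.90 FPKM in KO and 25.6, 24.6 and 20.5 FPKM in WT (limma adjusted p = 0.99986, unadjusted 0.0659). Nlgn2 was at 50.7 to 66.4 FPKM, Lrrc4b at 27.0 to 68.7, Nrxn2 at 14.8 to 26.0 and Lrrc4c at 5.42 to 8.30 FPKM. The hedgehog list around Gas1 had 7 higher and 1 lower of 8 (median 0.18), 0 of them called. Smo, the signal transducer, was 21.6 ± 0.380 FPKM in KO and 18.5 ± 2.202 in WT. It was higher in KO with no overlap, as were 2.03% of all tested genes. Ptch1 was 18.0 ± 2.04 and 18.3 ± 2.34 FPKM, Boc ranged from 4.16 to 9.51 and Shh from 0.436 to 1.85 FPKM.

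Other GPI-anchored proteins outside the members were read for scale. Of 17 tested, 13 were higher and 4 lower in KO in direction, and 0 were called. At an unadjusted p under 0.05 there was 1 of the 17, against 1.62% of all genes. This was Cd48, a leukocyte protein, at 2.50, 1.70 and 3.88 FPKM in KO and 0, 0.597 and 1.82 FPKM in WT (limma adjusted p = 0.99986, unadjusted 0.0388). The higher microglia sum in KO stands beside it, and its part was not tested. Gpc1, a glypican, was at 15.7 to 37.3 FPKM, Ly6e at 12.1 to 19.9 FPKM and Plaur, the urokinase receptor, at 3.37 to 9.96 FPKM. Cntfr, the receptor chain in the study's title, was at 13.4, 18.4 and 15.9 FPKM in KO and 14.9, 16.2 and 13.2 FPKM in WT, or 15.9 ± 2.51 against 14.8 ± 1.52 FPKM, with overlap. On the measure used here its mean level falls between those of Iglon5 and Lsamp among the members, so 9 members stood above it. Genes assembled over only part of their bases, such as Ly6h, stand lower on this measure than by the FPKM of their transcripts.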

How the data were processed

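Transcript assemblies of 3 Gde3 KO and 3 WT libraries were used, with groups and numbers from the titles. Their authors name the mm10 build and the tools TopHat2 2.1.1, FastQC, Cuffdiff 2.2.1 and Cufflinks 2.2.1, per the submitters' processing notes. The deposited files hold an FPKM value for each transcript as text, from the authors' assembly. Strandedness, read counts and total depth are not given in the sources used here, and identifiers are not shared between libraries. Transcripts of 300 nt or more were assigned to genes of the basic GENCODE M21 set by overlap. A gene's level is the FPKM summed at each exonic base that no other gene shares and averaged over those bases, for genes with at least 200 such bases. It falls where part of a gene is not assembled. Those whose mean reached 1 FPKM went into limma 3.58.1 (R 4.3.3) as log2(FPKM + 1), with genotype as the term, a trended empirical Bayes prior, two-sided p-values and Benjamini-Hochberg adjustment at 0.05, a procedure tested on simulated data. The members and the partner and marker lists were chosen with earlier results of these data known. A listed marker is not reported here. Named genes are members at 5 FPKM or more or without overlap, with the others by range, and in each partner list the 3 highest and the 2 with the smallest p. Ret was named in addition. Same-numbered libraries correlated at 0.369, 0.197 and 0.293 in their deviations from the group means and other pairings at -0.277 to 0.0234. The numbers were therefore taken as pairs, a reading that comes from the data and not from the labels. Whether the match by number exceeds chance was not tested. The F test of the replicate number and the counts over pairs were added after seeing the data. Promoter sequences are from RefSeq on GRCm38.p6. Figures were drawn with matplotlib 3.10.9.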

Additional observations from a re-analysis of the deposited data

How the results depend on the processing

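Under all 19 alternatives 0 members were called, and the same held for the partner genes under each alternative run for them. With the replicate block the count over all genes fell from 1 (Mettl23) to 0, and it changed no call of a member. The count over all genes was also 0 with a pseudocount of 0.1 or 5, a minimum mean of 5 FPKM or summed FPKM, 2 with assembled bases only, 1 to 17 when a library was left out and 27 without both libraries numbered 1. The 17 came without KO replicate 1, and the count was 3 without KO replicate 3 or WT replicate 1 and 2 without KO replicate 2 or WT replicate 2. At a minimum of 5 FPKM, 19 members remain. Members lower in all 3 pairs numbered 12 of 36, against 15.8% of all genes. The count was 13 with median scaling (15.4% of all genes), 15 with quantile normalization (15.5%) and 8 with summed FPKM (16.0%). It was 12 with assembled bases only (16.2%) or no length minimum (17.8%).

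Of 397 values of 21 named members under alternatives, 369 kept their direction and 28 reversed, with 10 members never reversed. Differences below 0 numbered 38 of 43 members with summed FPKM, 88.4% against 72.3% of all genes, whose median moved to -0.25. With assembled bases only they numbered 32 of 39, 82.1% against 59.8% of all genes, whose median was -0.04. In the main fit they numbered 25 of 36, 69.4% against 51.4%. Summed FPKM and the fit with no length minimum also took in transcripts under 300 nt. These made up 36.8% of the transcripts in WT replicate 1 and 2.16% to 6.61% in the other libraries. Their part in the shift below 0 was not tested. Leaving out a library gave log2 differences from -0.37 to 0.33 for Cdh13, -0.12 to 0.54 for Rgma, -0.33 to 0.0193 for Gfra1, -0.34 to 0.20 for Ntm, -0.0707 to 0.14 for Iglon5, -0.33 to 0.14 for Efna2, -0.17 to 0.0258 for Ly6h, -0.23 to 0.15 for Sema7a, -0.999 to 0.52 for Thy1, -0.63 to -0.02 for Lsamp, -0.27 to -0.08 for Cntn1, -0.41 to -0.13 for Cd24a and -0.0495 to 0.25 for Alpl. The top values of Cdh13, Gfra1, Ntm, Efna2, Sema7a and Thy1 came without WT replicate 1. Without both libraries numbered 1 the difference was 0.0157 for Cdh13, -0.0117 for Iglon5, 0.0415 for Efna2 and 0.19 for Thy1. Array weights gave -0.12 for Rgma, -0.0770 for Iglon5 and 0.0265 for Sema7a. Assembled bases gave 0.37 for Lsamp and summed FPKM -0.24 for Alpl. Lsamp was -5.58 with summed FPKM and -3.94 with no length minimum, and summed FPKM gave -0.96 for Negr1, -0.58 for Cntn4 and -0.36 for Sema7a. The cause of these reversals was not tested. A listed 0, a short assembly and the lack of read counts limit what can be said of members near 1 FPKM.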
